A study of Mus musculus with 12 samples.

Results

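Potassium channel genes were examined in quadriceps RNA from 12 mice, as the 52 protein-coding genes of the deposited tables whose symbols begin with Kcn, out of 13811 coding genes and 15344 genes in all. The choice rested on the symbol alone and used no measured value. Reads had been counted per gene and divided by 1 size factor per library, and these normalized counts are the levels given below. The mice were C57BL/6 and 6 months old, in 3 groups of 4, with male sex stated for the Gaa knockout mice only. Animals labelled WT were wild type and untreated. Animals labelled KO carried, per the labels, a knockout of Gaa, the gene of the lysosomal enzyme acid alpha-glucosidase that degrades glycogen and is missing in Pompe disease, and were injected with PBS. Animals labelled AAV were KO mice given AAV2/8-LSPhGAApA, a vector carrying human GAA behind a liver-specific promoter, through the tail vein at 2 months of age and a dose of 2e12 vg/kg, and were killed 4 months later. The promoter is meant to act in liver cells and not in the muscle studied here. Each library came from 1 animal.

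Potassium channels set the resting potential of a muscle fibre and end its action potentials. Voltage-gated (Kv) channels are assembled from 4 pore subunits and open on depolarization, and silent Kv subunits form no channel alone but alter the Kv channels they join. Auxiliary subunits change gating or surface delivery. Calcium-activated channels couple intracellular calcium to the membrane potential, inward rectifiers (Kir) hold the resting potential and include the ATP-sensitive channels that report the energy state of the fibre, and two-pore-domain (K2P) channels carry leak current. Innervated adult fibres keep some of these genes low, and the small-conductance calcium-activated channel gene Kcnn3 is a textbook example of a gene that comes on when muscle loses its nerve.

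The labels and the targeted gene did not match. Normalized counts of Gaa were 12151, 13074, 11936 and 12895 in the libraries labelled KO, but 343, 14640, 324 and 460 in those labelled WT and 947, 587, 500 and 9854 in those labelled AAV. The targeted gene was thus high in all 4 libraries labelled KO, and the libraries labelled WT 2 and AAV 4 were unlike the rest of their groups. Which part of the gene the knockout disrupts is not given in the sources used here. Group names below are those of the labels, every direction rests on them, and counts are also given without the libraries labelled WT 2 and AAV 4. Library depth lay between 22122233 and 47379737 reads. The 8 skeletal fibre markers summed to between 4110000 and 6937500 normalized counts in every library. The 2 neuron markers of 5 that were listed summed to at most 163, and the only lymphocyte marker listed of 5 reached at most 22.3.

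Expression of the channel genes was dominated by a few members. To compare genes, the normalized count was divided by the exon length in kb. By this measure Kcna7, which encodes a Kv pore subunit typical of skeletal and cardiac muscle, had the highest level of all (3025 per kb over the 12 libraries) and held between 38.7% and 50.0% of the summed level of the 52 genes in each library. Kcnc4, a fast-gating Kv pore subunit, followed at 669 per kb. The next levels were those of Kcnj12, a Kir subunit of the resting conductance (641 per kb), and of Kcnj11, the pore of the ATP-sensitive channel (553 per kb). The 10 highest genes made up 90.8% of the total. At the other end, 23 genes had a mean normalized count under 20 and are measured with few reads.

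Kcna7 and Kcnc4 were not called in any comparison, that is, they did not pass the limma test and fold threshold described below. Kcna7 had normalized counts of 5466, 6492, 8968 and 5978 in the libraries labelled WT, of 6888, 6752, 7345 and 6253 under the label KO and of 5378, 8182, 7334 and 4181 in those labelled AAV. Its 3 groups overlapped throughout. Kcnc4 had 2089, 2595, 2935 and 2420 in the libraries labelled WT, 3042, 3751, 2190 and 2414 under the label KO and 1785, 2298, 2779 and 1156 in those labelled AAV, which overlap as well. Per kb, Kcna7 had 3082, 3121 and 2873 for the labels WT, KO and AAV, and Kcnc4 had 684, 777 and 547.

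Summed by class and per kb of exon, the 17 Kv pore subunit genes took 67.0% of the channel transcript level, the 6 Kir genes 21.1%, the 7 silent Kv genes 5.57% and the 8 calcium- or sodium-activated genes 3.59%. The 6 K2P genes took 1.48%, the 7 Kv auxiliary genes 1.28% and Kcnmb1, the auxiliary subunit of the large-conductance calcium-activated (BK) channel in smooth muscle, 0.0483%. The silent subunits summed to 186, 223, 482 and 145 per kb in the libraries labelled WT, 719, 634, 569 and 664 under the label KO and 219, 281, 531 and 94.0 in those labelled AAV. All 4 libraries labelled KO lay above every other library, and WT 3 and AAV 3 came closest to them. Most of this class level was that of Kcng4, with 236, 593 and 250 per kb for WT, KO and AAV. The other 6 silent genes summed to 11.7 to 53.5 per kb in WT, 37.5 to 77.5 in KO and 11.3 to 73.7 in AAV, which overlap. The K2P class went the other way in its means, at 152 ± 81.4 per kb (SD, n = 4) for the label WT, 55.7 ± 16.1 for KO and 107 ± 49.3 for AAV, with overlap between the groups. Kcnk5 carried this, and without it the other 5 K2P genes summed to 32.9 ± 6.07 per kb in WT, 47.5 ± 14.3 in KO and 48.7 ± 7.63 in AAV. The total over all classes was 7237 ± 1195, 7593 ± 415 and 6461 ± 1374 per kb for WT, KO and AAV. These class levels are descriptions and were not tested.

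**Figure D1:**
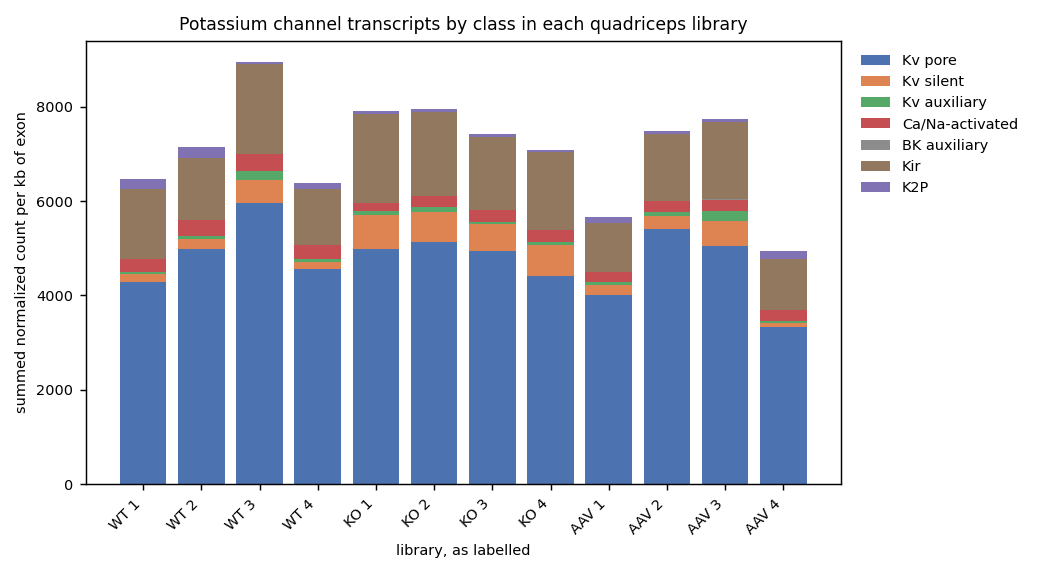
Summed normalized count per kb of exon for the potassium channel genes of each class (vertical axis) in each of the 12 libraries (horizontal axis, named by label and replicate); bar segments are classes. Kv pore subunit genes form most of every bar, and the silent Kv segment is largest in the 4 libraries labelled KO (569 to 719 per kb).

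**Figure D2:**
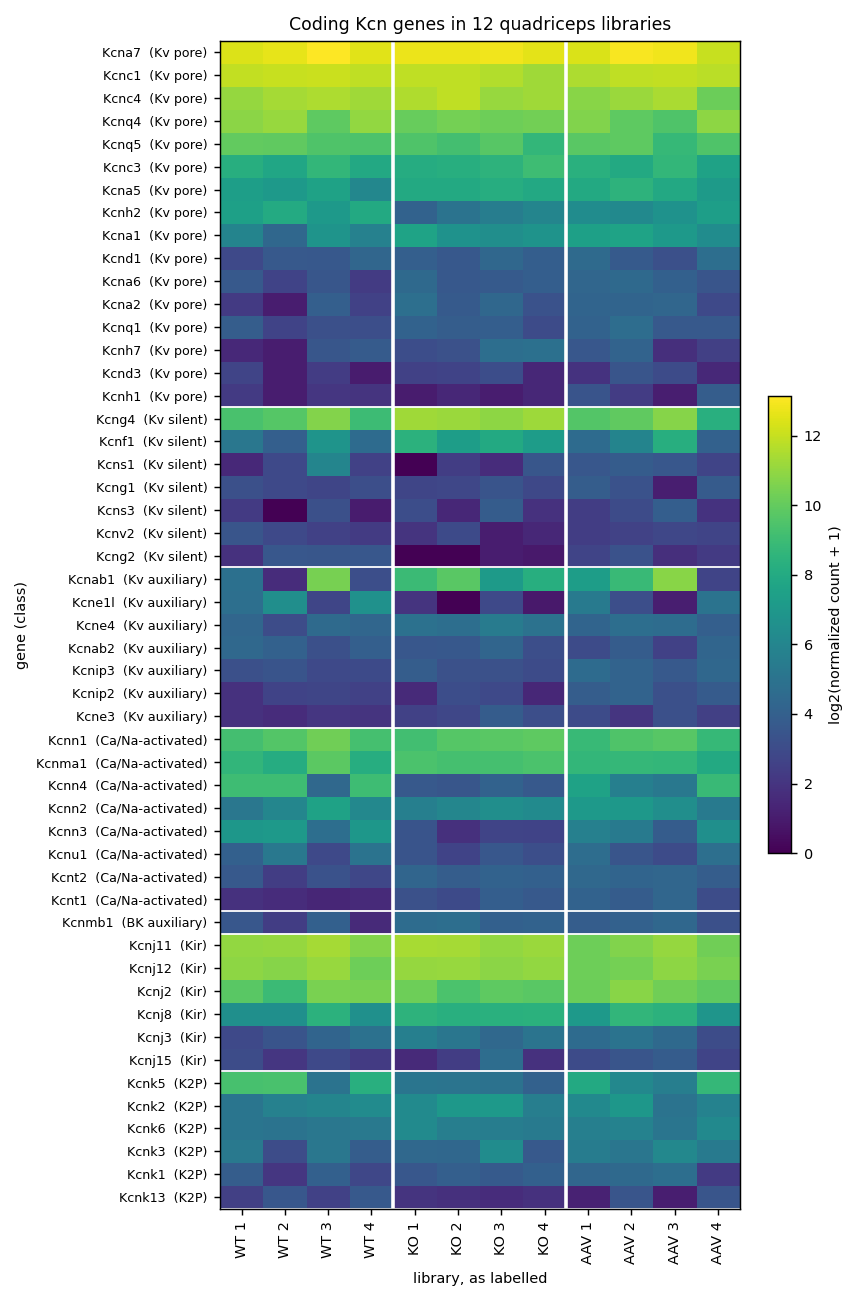
Levels of the channel genes as log2(normalized count + 1) (colour) in each library (columns), with genes ordered by class and by level within it. Most genes keep a similar colour across the groups. Kcnn3, Kcnn4, Kcnk5 and Kcnh2 are darker in the libraries labelled KO, and Kcng4 and Kcnf1 are brighter there.

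Pairs of groups were tested with limma-trend after adding 1 to each normalized count and taking log2. Genes entered a test when 1 or more of its 8 libraries reached a normalized count of 10, and p-values were adjusted over all genes entered (Benjamini-Hochberg). The word called is used for genes whose adjusted p was below 0.05 and whose level differed by a log2 fold change of 1 or more in either direction. The added 1 understates the change of genes with low counts. By its labels, the study compared KO with WT to find differences that go with loss of the enzyme and AAV with KO to find those that go with liver gene therapy, and AAV and WT can be compared on the same scale. Enzyme activity and glycogen content, which the study also assayed, were not analysed here. The first and second comparisons share the 4 libraries labelled KO. In whole muscle, fewer cells of a type and less RNA per cell cannot be told apart.

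Between the libraries labelled KO and WT, 4 of the 47 channel genes tested were called higher in KO (Kcng4, Kcnf1, Kcnj8 and Kcnt1) and 6 were called lower (Kcnn3, Kcnn4, Kcnk5, Kcnh2, Kcne1l and Kcng2). The background over all 14859 genes tested was 5.43% called higher and 8.50% called lower, and 21.3% of the channel genes were called in either direction. The median log2 fold change of the channel genes was 0.31, beside 0.024 over all genes. Between AAV and KO, 5 of 50 were called higher (Kcnn3, Kcnn4, Kcnk5, Kcnh2 and Kcnip2), where 5.43% of 14894 genes were, and Kcng4 alone was called lower, where 3.55% were. There the median was 0.080, beside 0.041 over all genes. Between AAV and WT, Kcnt1 alone of 50 was called higher (background 0.730% of 14939 genes) and 0 were called lower (background 0.221%) by limma. DESeq2 and edgeR gave the same counts, where they called 2.13% and 0.683% of all genes higher and 0.663% and 0.161% lower. By limma, 9 channel genes were higher and 1 was lower at an unadjusted p under 0.05. The members not tested for lack of counts were 5, 2 and 2 in the 3 comparisons. Of the genes called, Kcnn3, Kcne1l, Kcng2, Kcnt1 and Kcnip2 passed the filter only through the group where they were higher. A filter on a mean of at least 10 kept the calls of Kcnn3 and Kcne1l and left Kcng2, Kcnt1 and Kcnip2 untested.

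Kcnn3, Kcnn4, Kcnk5, Kcnh2 and Kcng4 were called both between KO and WT and between AAV and KO, and the 250 bases before their RefSeq starts are given for that reason. The sequences are from RefSeq on GRCm38.p6, each 5′ to 3′ on the strand of its gene. The RefSeq start of Kcnk5 lies inside the gene span given below, so part of its window does too. Capitals mark the letters GGGCGG on either strand (CCGCCC when read on the other), the core of a GC box, and CAGCTG, an E-box bound by muscle regulatory factors; no marked copy overlaps another.
Kcnn3 (chr3:89519914-89520163, + strand): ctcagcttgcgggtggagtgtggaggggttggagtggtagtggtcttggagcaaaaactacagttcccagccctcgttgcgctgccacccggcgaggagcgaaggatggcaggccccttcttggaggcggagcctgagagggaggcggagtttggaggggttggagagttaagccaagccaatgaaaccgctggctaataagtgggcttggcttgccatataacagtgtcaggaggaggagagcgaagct
Kcnn4 (chr7:24370013-24370262, + strand): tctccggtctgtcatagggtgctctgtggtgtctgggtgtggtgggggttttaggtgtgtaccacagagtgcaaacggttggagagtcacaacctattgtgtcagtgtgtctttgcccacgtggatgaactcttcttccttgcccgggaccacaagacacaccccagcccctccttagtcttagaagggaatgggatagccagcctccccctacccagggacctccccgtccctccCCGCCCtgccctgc
Kcnk5 (chr14:20181783-20182032, - strand): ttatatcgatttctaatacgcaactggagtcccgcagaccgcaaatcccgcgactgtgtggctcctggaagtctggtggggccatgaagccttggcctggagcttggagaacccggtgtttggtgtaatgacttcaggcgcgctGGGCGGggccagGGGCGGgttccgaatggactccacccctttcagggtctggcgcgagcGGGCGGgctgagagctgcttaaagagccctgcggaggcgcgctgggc
Kcnh2 (chr5:24329592-24329841, - strand, an internal start of the annotated gene): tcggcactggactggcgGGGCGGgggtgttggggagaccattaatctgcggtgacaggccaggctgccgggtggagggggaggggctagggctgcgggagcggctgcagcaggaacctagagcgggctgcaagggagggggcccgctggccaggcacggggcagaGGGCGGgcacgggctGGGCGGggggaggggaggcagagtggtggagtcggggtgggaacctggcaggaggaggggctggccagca
Kcng4 (chr8:119635681-119635930, - strand): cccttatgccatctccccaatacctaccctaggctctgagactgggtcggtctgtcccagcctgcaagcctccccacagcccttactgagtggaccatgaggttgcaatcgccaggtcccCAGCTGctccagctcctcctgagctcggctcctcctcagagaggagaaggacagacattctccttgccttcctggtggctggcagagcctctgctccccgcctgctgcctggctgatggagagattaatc
GGGCGG occurred 3 times before Kcnk5 (106, 94 and 47 bases upstream of the start), 3 times before Kcnh2 (233, 85 and 70 bases) and once before Kcnn4 (14 bases), and was not among the letters shown for Kcnn3 and Kcng4. Of 32851 RefSeq promoters of the same length, 32.7% held it. CAGCTG occurred once, 130 bases before the start of Kcng4, and 13.0% of promoters held it. Also searched on both strands were CACCTG, another E-box, and the TATA box letters TATAAA, held by 17.2% and by 12.4% of promoters, and the MEF2 motif, held by 0.508%. None of these was in the 5 windows. The GC content of the 5 windows was between 58.8% and 73.6%, above the median of 52.4% over all promoters. These matches describe letters and were not tested as sites.

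Of the 8 calcium- or sodium-activated genes, 1 was called higher and 2 lower for KO over WT (5.43% and 8.50% of all genes). For AAV over KO, 2 were called higher and 0 lower (5.43% and 3.55% of all genes). Kcnn3 (ENSMUSG00000000794, GRCm38 chr3:89520164-89675132), the small-conductance channel SK3, had normalized counts of 124, 138, 26.0 and 122 in the libraries labelled WT. In those labelled KO it had 9.66, 2.57, 5.44 and 5.3, and in those labelled AAV 51.0, 42.3, 13.0 and 90.9. Every library labelled KO lay below every other library, and WT 3 and AAV 3 were the lowest of their groups. KO over WT gave a log2 fold change of -3.80 (SE 0.55, limma adjusted p = 0.00208) and AAV over KO gave 2.72 (SE 0.56, adjusted p = 0.0102).

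Kcnn4 (ENSMUSG00000054342, GRCm38 chr7:24370263-24386690), the intermediate-conductance channel that also serves red cells and lymphocytes, had 534, 535, 20.3 and 534 in the libraries labelled WT. It had 11.6, 10.3, 16.3 and 11.5 in those labelled KO and 189, 50.3, 36.6 and 468 in those labelled AAV. The groups WT and AAV each ran from near the KO level to more than 400, with WT 3 near KO. Its log2 fold changes were -4.17 (SE 0.92, limma adjusted p = 0.0110) for KO over WT and 3.11 (SE 0.69, adjusted p = 0.0127) for AAV over KO. Without WT 3 the first was -5.34, and without AAV 4 the second was 2.44. DESeq2 gave -5.04 and 3.90. Beside it, the 3 erythroid markers listed of 5 summed to a normalized count of 327 to 406 under the label WT, of 35.9 to 387 under KO and of 363 to 1028 under AAV.

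Kcnt1, a sodium-activated channel, was measured at low counts of 2.71, 2.13, 1.62 and 1.95 in the libraries labelled WT. Those labelled KO had 8.70, 6.84, 14.1 and 11.5 and those labelled AAV 16.5, 13.1, 18.9 and 7.34. WT lay below both other groups without overlap. The log2 fold change was 1.83 (SE 0.39, limma adjusted p = 0.00997) for KO over WT and 2.21 (SE 0.43, adjusted p = 0.0481) for AAV over WT. The call for AAV over WT was lost in 9 of 17 alternatives, among them the replicate block and 7 of the 8 fits without 1 library. By limma with all libraries of each pair the other members of this class were not called. Without WT 3, Kcnt2, Kcnma1 and Kcnu1 were called for KO over WT. Kcnt2 was also called there without WT 1 (1.24, limma adjusted p = 0.0448), and with all 12 libraries in one fit for KO over WT (1.03, adjusted p = 0.0311) and AAV over WT (1.19, adjusted p = 0.0471). Kcnn1, the most abundant of them per kb, had 808 ± 309 (SD, n = 4) for the label WT, 807 ± 160 for KO and 623 ± 208 for AAV.

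Kcnma1, the pore of the BK channel, is named here after its values were seen. It had 685, 609, 601 and 673 in the libraries labelled KO, against 413, 430, 418 and 248 in those labelled AAV, with no overlap. The change of -0.80 in log2 (SE 0.18, limma adjusted p = 0.0135) passed the p threshold and not that of size. In the libraries labelled WT it had 394, 276, 894 and 287, on both sides of the KO values. Its auxiliary subunit Kcnmb1, not called by limma with all libraries of each pair but called higher in KO than in WT with all 12 libraries in one fit (1.50, adjusted p = 0.0398) and without WT 3 (1.88, adjusted p = 0.00881), had 8.12 ± 6.16, 20.5 ± 5.21 and 14.6 ± 4.94 (SD, n = 4) for WT, KO and AAV.

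**Figure D3:**
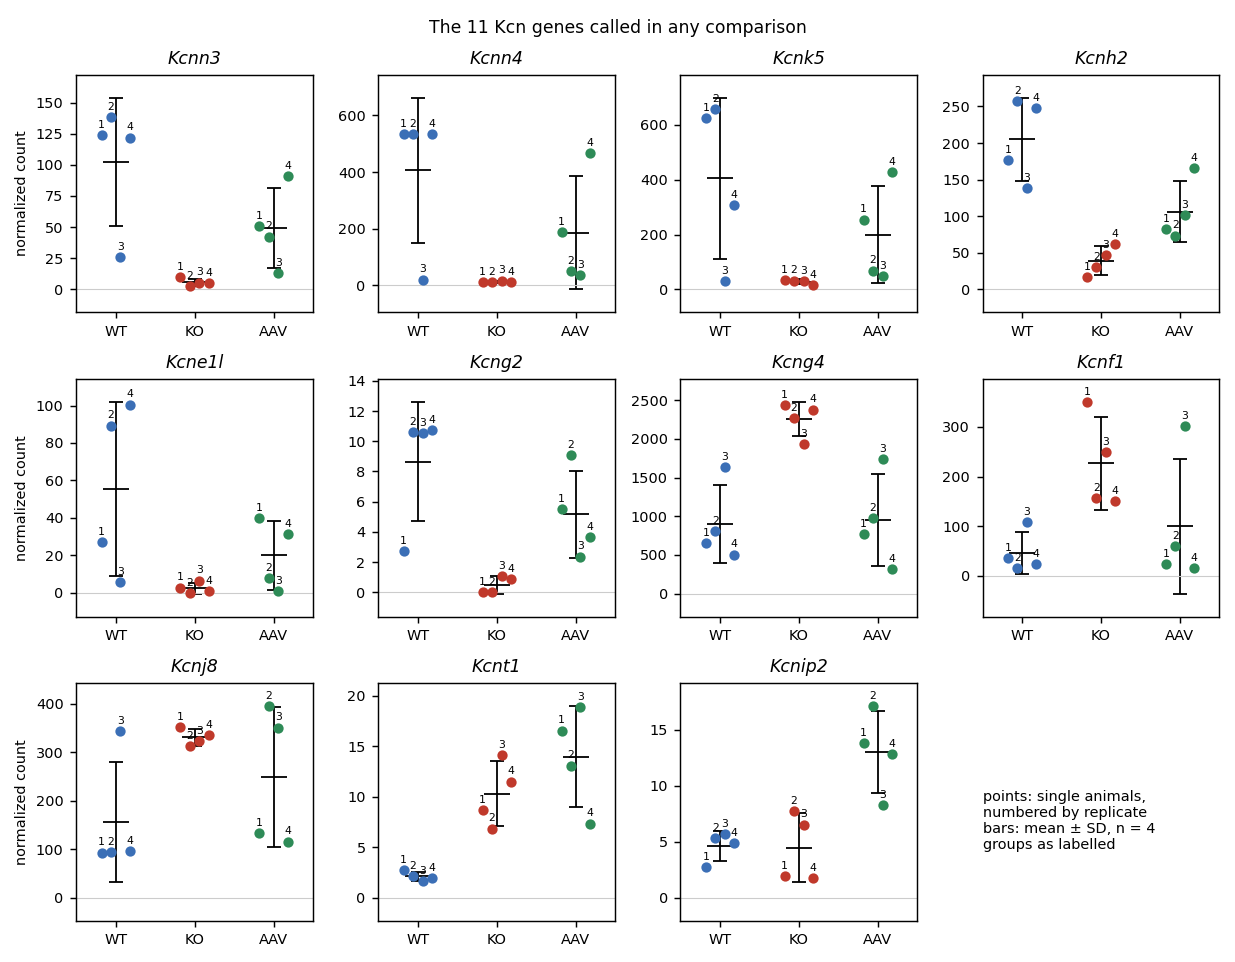
Normalized count (vertical axis) of the 11 genes called in any comparison, by labelled group (horizontal axis); points are single animals numbered by replicate, and bars are the mean ± SD (n = 4). Kcnn3, Kcnn4, Kcnk5 and Kcnh2 are lowest in the group labelled KO, and the point of WT 3 lies near the KO points for Kcnn4 (20.3) and Kcnk5 (30.8).

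Among K2P channels, Kcnk5 (ENSMUSG00000023243, GRCm38 chr14:20140057-20181809), the acid-sensitive leak channel TASK-2, had 625, 657, 30.8 and 306 in the libraries labelled WT. It had 33.8, 31.6, 30.5 and 15.9 in those labelled KO and 255, 68.5, 48.4 and 428 in those labelled AAV. WT 3 fell among the KO values, so that WT and KO overlapped, and AAV lay above KO in all 4 libraries. Fitted log2 fold changes were -3.18 (SE 0.83, limma adjusted p = 0.0207) for KO over WT and 2.32 (SE 0.62, adjusted p = 0.0246) for AAV over KO. The first call was lost without WT 1, WT 2, WT 4 or KO 4, and the second without KO 1, KO 2, KO 4 or AAV 1 and with all 12 libraries in one fit. Without WT 3 the change for KO over WT was -4.17, and DESeq2 gave -3.87 with all libraries. By limma with all libraries of each pair the other 5 K2P genes were not called. Kcnk13 was called lower in KO than in WT by edgeR (-1.56, adjusted p = 0.0481) and by limma without WT 3 (-1.39, adjusted p = 0.0311), and limma called Kcnk3 for AAV over KO without KO 3 (1.40, adjusted p = 0.0272). Kcnk2, the mechanically gated leak channel TREK-1, had 57.5 ± 19.8 (SD, n = 4), 96.8 ± 40.4 and 71.0 ± 39.5 for WT, KO and AAV.

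Among the Kv pore genes, of which 15 were tested between KO and WT and 17 in the other comparisons, limma with all libraries of each pair called only Kcnh2. This gene was called lower for KO over WT (8.50% of all genes) and higher for AAV over KO (5.43% of all genes). With the replicate number as a block limma also called Kcnh7 for KO over WT (adjusted p = 0.0386). Kcna1, Kcna2, Kcna5 and Kcnh7 were called there without WT 3, Kcna5 without WT 1 and, for AAV over KO, Kcnh1 without AAV 3, and edgeR called Kcnh1 for AAV over KO (2.25, adjusted p = 0.0496). Kcnh2 encodes the ERG channel, which repolarizes the heart and is known in skeletal muscle for its part in atrophy. Kcnh2 (ENSMUSG00000038319, GRCm38 chr5:24319589-24351604) had 176, 257, 138 and 248 in the libraries labelled WT, 16.4, 30.8, 46.8 and 61.9 under the label KO and 82.7, 73.5, 102 and 166 in those labelled AAV. All KO values lay below all others, here without WT 3 among them. By limma the log2 fold change was -2.47 (SE 0.38, adjusted p = 0.00276) for KO over WT and 1.50 (SE 0.40, adjusted p = 0.0243) for AAV over KO, and the second call was lost without KO 1 or KO 2. Between AAV and WT it was -0.97 (SE 0.30, adjusted p = 0.141), which was not called.

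A cluster of 3 genes of the shaker family lie next to each other on chromosome 6, in the order Kcna5, Kcna1 and Kcna6, with 105 kb between the first pair and 61.9 kb between the second, and are named here after their values were seen. Kcna5 had 165, 130, 188 and 67.3 in the libraries labelled WT, 252, 250, 287 and 238 under the label KO and 255, 354, 242 and 141 in those labelled AAV. WT lay below KO without overlap, at a log2 fold change of 0.99 (SE 0.29, limma adjusted p = 0.0296) that was just short of the size needed for a call. Without WT 1 or WT 3 the change was 1.11 (limma adjusted p = 0.0389) and 1.17 (adjusted p = 0.00462), which were called. Kcna1, mutated in episodic ataxia with myokymia, had a log2 fold change of 1.17 (SE 0.45, adjusted p = 0.0783), and Kcna6 one of 0.88 (SE 0.41, adjusted p = 0.128), neither of which passed the test.

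Of the silent Kv subunits, 1 of 7 classes described, 5 were tested between KO and WT, with 2 called higher and 1 lower (5.43% and 8.50% of all genes). Kcng4 (ENSMUSG00000045246, GRCm38 chr8:119623854-119635680), the only abundant one, had 656, 805, 1631 and 503 in the libraries labelled WT. It had 2442, 2270, 1937 and 2379 in those labelled KO and 773, 972, 1740 and 315 in those labelled AAV. KO lay above both other groups without overlap, and WT 3 and AAV 3 were the highest of theirs. The log2 fold change was 1.47 (SE 0.30, limma adjusted p = 0.00841) for KO over WT and -1.49 (SE 0.41, adjusted p = 0.0263) for AAV over KO. Kcng4 kept its call between KO and WT in every fit that left out 1 library, and lost that between AAV and KO in 4 of 8 (without KO 1, KO 2, KO 4 or AAV 1).

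Kcnf1, whose product alters the Kv channels it joins, had 35.3, 14.9, 109 and 23.4 under the label WT and 351, 156, 249 and 151 under the label KO. The log2 fold change was 2.60 (SE 0.53, limma adjusted p = 0.00841), with no overlap. In the libraries labelled AAV it had 23.4, 59.4, 302 and 15.6, so that AAV 3 lay within the KO range and the other 3 below it. For AAV over KO the change of -2.04 (SE 0.76, adjusted p = 0.0737) was not called. Without the library labelled AAV 3 it was -2.88 (adjusted p = 0.00262), which was called.

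Kcng2 was measured with few reads. Normalized counts were 2.71, 10.6, 10.6 and 10.7 under the label WT and 0, 0, 1.09 and 0.884 under the label KO. Pooled, these were 37 and 2 reads, a depth-corrected ratio of WT to KO of 18.3 (95% exact interval 4.72 to 157, counting error only). By limma the log2 fold change was -2.63 (SE 0.57, adjusted p = 0.0103), and it was -4.55 with 0.1 added in place of 1 and -4.20 with DESeq2. In the libraries labelled AAV it had 5.51, 9.06, 2.36 and 3.67, so that the gene did not pass the filter for the test against KO. With no filter on low values it was called for AAV over KO (2.01, limma adjusted p = 0.0239). The pooled 19 reads gave a ratio of AAV to KO of 11.1 (95% exact interval 2.67 to 97.9).

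Among the auxiliary subunits, Kcne1l, a small single-pass membrane protein of the Kcne family, had 27.1, 89.3, 5.68 and 100 in the libraries labelled WT. Those labelled KO had 2.90, 0, 6.53 and 0.884 and those labelled AAV 40.0, 8.05, 1.18 and 31.2. WT 3 lay within the KO values. For KO over WT the log2 fold change was -3.73 (SE 0.91, limma adjusted p = 0.0157), and the call was lost without WT 2 or WT 4. It was -4.54 without WT 3, -4.87 with 0.1 added in place of 1 and -4.48 with DESeq2. For AAV over KO it was 2.22 (SE 0.96, adjusted p = 0.111), which limma did not call, while DESeq2 did (2.99, adjusted p = 0.0203).

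Kcnip2, a calcium-binding partner of Kv4 channels, had 2.71, 5.3, 5.68 and 4.88 in the libraries labelled WT, 1.93, 7.70, 6.53 and 1.77 under the label KO and 13.8, 17.1, 8.27 and 12.8 in those labelled AAV. AAV lay above KO without overlap, at a log2 fold change of 1.50 (SE 0.49, limma adjusted p = 0.0452). The gene reached a normalized count of 10 only in libraries labelled AAV and was tested only through that group. It was therefore not tested between KO and WT. The call was lost in 9 of 16 alternatives, with DESeq2 and edgeR among them, over which the adjusted p ranged from 0.0342 to 0.115. Kcnab1, the Kv beta subunit that speeds inactivation, varied widely within groups. It had 28.1, 2.13, 1399 and 7.80 in the libraries labelled WT, 498, 859, 142 and 296 under the label KO and 158, 478, 1769 and 5.51 in those labelled AAV. WT 3 and AAV 3 were the highest of all 12 libraries, and WT 2 and AAV 4 the lowest. Its log2 fold change for KO over WT was 3.50 (SE 1.55, limma adjusted p = 0.115), which was not called. Without WT 3 it was 5.3 (adjusted p = 0.000301), which was called.

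Of the 6 inward rectifiers, limma with all libraries called only Kcnj8, higher in KO than in WT (5.43% of all genes). Kcnj8, the ATP-sensitive pore of vascular smooth muscle and pericytes, had 93.2, 93.5, 343 and 95.6 in the libraries labelled WT, 353, 313, 323 and 336 under the label KO and 134, 396, 351 and 116 in those labelled AAV. WT 3 lay among the KO values and the other 3 far below. The log2 fold change for KO over WT was 1.34 (SE 0.38, limma adjusted p = 0.0282), and the call was lost with edgeR and in 7 of the 8 fits without 1 library. For AAV over KO it was -0.62 (SE 0.37, adjusted p = 0.231).

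The summed level of the 6 smooth muscle markers was 8338, 4734, 11966 and 4216 in the libraries labelled WT, 12828 to 15555 in those labelled KO and 9393, 14268, 12565 and 7409 in those labelled AAV. The 6 endothelial markers summed to 2916, 1837, 5171 and 1934, to between 4391 and 5783, and to 4222, 6132, 5389 and 3580. Both sums were thus lower in WT 1, WT 2 and WT 4 than in WT 3 and the libraries labelled KO, as Kcnj8 was. Not every smooth muscle marker followed its sum. Acta2, Tagln and Cnn1 were higher in WT 1 (1831, 1370 and 106) than in WT 3 (1760, 1354 and 89.3), while Pdgfrb, Rgs5 and Myh11 were lower there. The part of these cell types in the difference of Kcnj8 was not tested.

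Kcnj11, the ATP-sensitive pore of the fibres themselves, had 2721, 2656, 2073 and 2253 in the libraries labelled KO and 1212, 1619, 2151 and 1234 in those labelled AAV. The change of -0.67 in log2 (SE 0.19, limma adjusted p = 0.0272) passed the p threshold and not that of size. Kcnj12 had 2118, 2209, 1858 and 2020 in those labelled KO and 1217, 1347, 1882 and 1460 in those labelled AAV, a change of -0.49 (SE 0.14, adjusted p = 0.0296). In both genes only AAV 3 reached the KO range. Against WT neither passed the test in either direction.

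**Figure D4:**
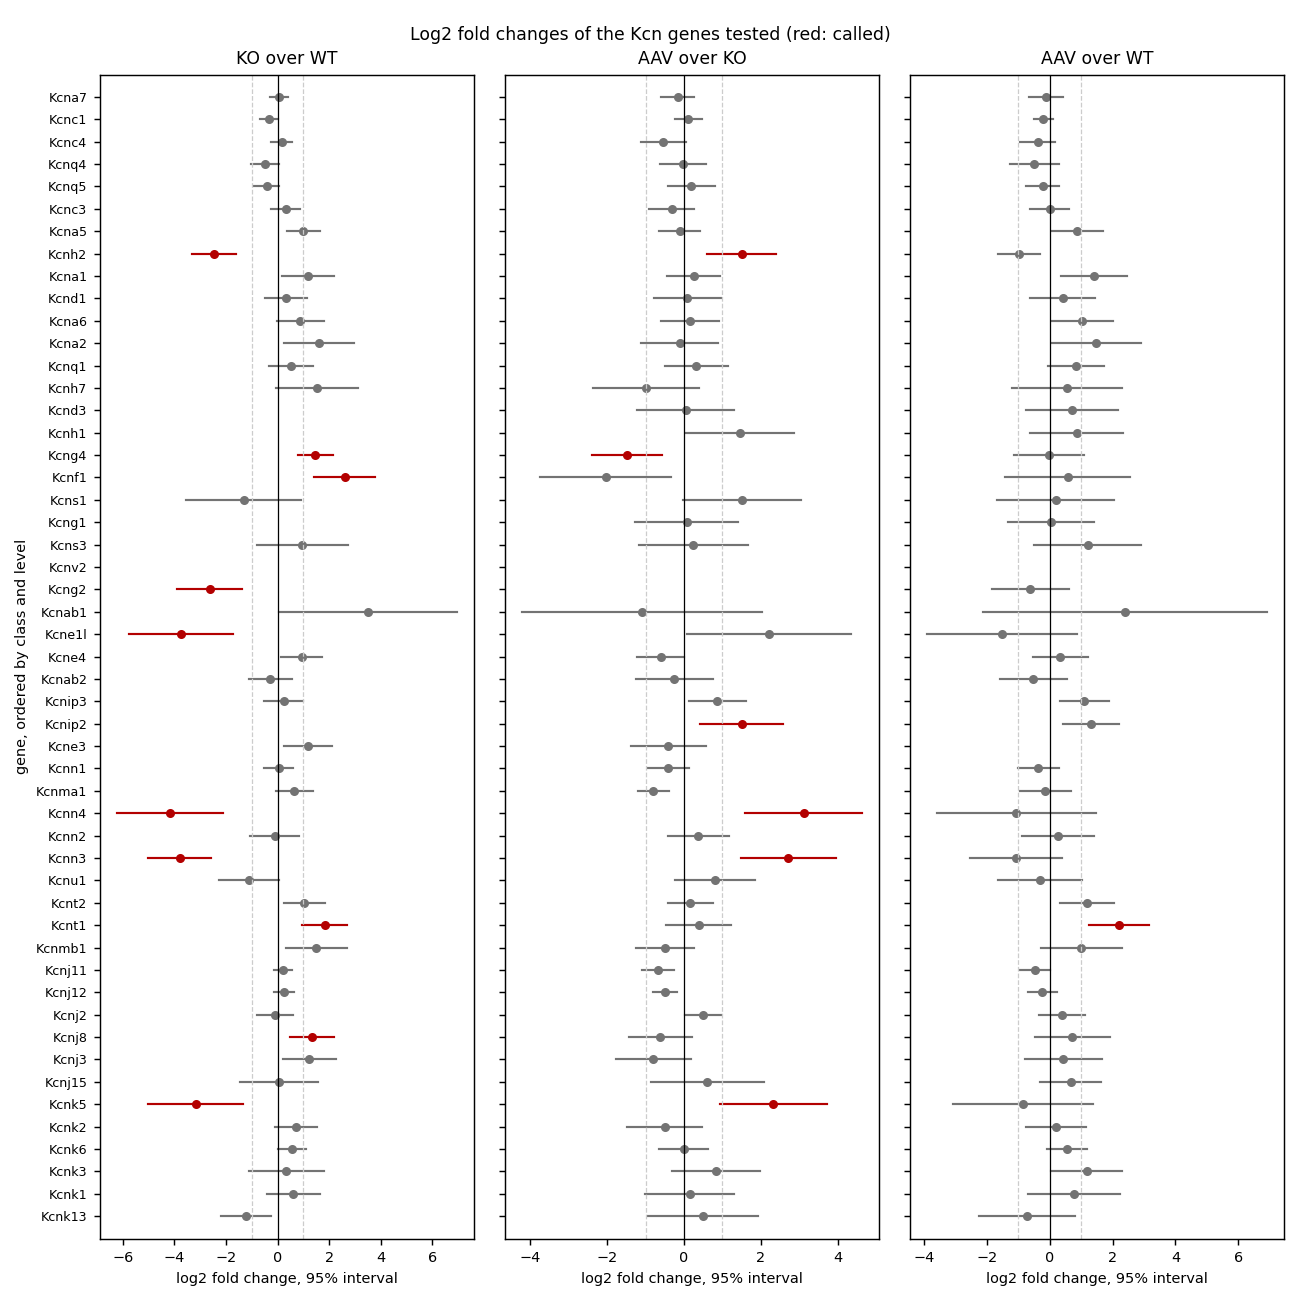
Log2 fold change with its 95% interval (horizontal axis) for channel genes tested (vertical axis, by class and level) in the 3 comparisons; red marks called genes and dashed lines mark a change of 1. Most intervals cross 0, Kcnn4 lies far to the left for KO over WT (-4.17) and to the right for AAV over KO (3.11), and Kcnt1 alone is red for AAV over WT.

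Genes outside the family that work with potassium channels or move potassium were described from a list of 31, of which 28 were tested. Between KO and WT, 1 was called higher and 2 lower, and between AAV and KO 4 were called higher and 0 lower (limma, with 8 lower at an unadjusted p under 0.05). DESeq2 and edgeR also called 0 lower for AAV over KO, beside 3.49% and 3.40% of all genes. Between AAV and WT limma called 0 in either direction (3 higher and 0 lower at an unadjusted p under 0.05), DESeq2 called 1 higher and edgeR called 0. The shares of all genes given above are the background for the limma counts with all libraries. For AAV over WT, DESeq2 and edgeR called 2.13% and 0.683% of all genes higher and 0.663% and 0.161% lower. Without the library labelled WT 3, 5 of these genes were called higher and 5 lower for KO over WT, and without WT 1, WT 2, WT 4, KO 3 or KO 4 only 1 was called lower, beside 5.57% to 7.06% of all genes. In the same fits 9.69% and 12.2% of all genes were called higher and lower without WT 3. For AAV over KO, 2 were called higher without KO 4, beside 3.38% of all genes.

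A pair of genes linked to the sodium-potassium pump, Fxyd6 and Atp1b4, was called in both comparisons with KO. Fxyd6, which modulates the pump, had 1251, 3911, 2858 and 5607 in the libraries labelled WT, 514, 719, 780 and 435 under the label KO and 3803, 5235, 1135 and 2381 in those labelled AAV. KO lay below both other groups without overlap. Log2 fold changes were -2.32 (SE 0.40, limma adjusted p = 0.00429) for KO over WT and 2.18 (SE 0.41, adjusted p = 0.00747) for AAV over KO.

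Atp1b4, a pump-related beta subunit of muscle, had a log2 fold change of -1.02 (SE 0.32, limma adjusted p = 0.0379) for KO over WT and of 1.49 (SE 0.38, adjusted p = 0.0201) for AAV over KO. The first call was lost in 8 of 17 alternatives, with DESeq2, edgeR, the replicate block and 5 left-out libraries (WT 1, WT 2, WT 4, KO 3 or KO 4), and the second without KO 4. Fxyd7, another pump regulator, rose by 1.55 (SE 0.34, limma adjusted p = 0.0121) between KO and AAV, and so did Lrrc52, an auxiliary protein of BK-type channels, by 2.47 (SE 0.75, adjusted p = 0.0377), a call that was lost in 5 of 17 alternatives (without KO 1, KO 3, KO 4, AAV 1 or AAV 2). Slc12a5, a potassium-chloride cotransporter, was higher in KO than in WT by 1.87 (SE 0.38, limma adjusted p = 0.00781), with 40.7 to 52.2 in KO and 6.38 to 22.7 in WT.

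Kcnj8 and Kcnj11 each lie beside the gene of a sulfonylurea receptor, the regulatory subunit of ATP-sensitive channels, and these receptor genes are named here after their values were seen. Abcc9 lies 16.3 kb from Kcnj8 on chromosome 6 and Abcc8 lies 3.76 kb from Kcnj11 on chromosome 7. Abcc9 had 4366 ± 745 (SD, n = 4) for the label WT, 7065 ± 755 for KO and 4403 ± 580 for AAV, with log2 fold changes of 0.70 (SE 0.15, limma adjusted p = 0.00874) for KO over WT and -0.69 (SE 0.13, adjusted p = 0.00774) for AAV over KO, both under the size for a call. For Abcc8 the change for KO over WT was -0.90 (SE 0.24, limma adjusted p = 0.0216), also under that size.

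Several called genes were high in the same libraries as the summed level of 9 genes that rise in denervated or regenerating muscle, among them the embryonic acetylcholine receptor subunit Chrng and the embryonic myosin Myh3. The list summed to 10555, 13798, 2558 and 11133 normalized counts in the libraries labelled WT, to between 1330 and 1633 in those labelled KO and to 6225, 2746, 2216 and 9400 in those labelled AAV. Kcnn3, Kcnn4 and Kcnk5 likewise had their 5 highest values in WT 1, WT 2, WT 4, AAV 1 and AAV 4. Of the 9 genes, Chrng had 95.9, 189, 4.06 and 231 in the libraries labelled WT and at most 14.5 in those labelled KO. The 4 macrophage markers listed of 5 summed to 2850, 2695, 884 and 3090 in the libraries labelled WT, 436 to 808 in those labelled KO and 820, 791, 436 and 2417 in those labelled AAV. The 6 Schwann cell markers summed to 968 to 2347 in WT, 1525 to 2508 in KO and 1268 to 3764 in AAV. Of the fibre types, the 7 slow fibre genes summed to 3396 to 6630 in WT, 1112 to 1297 in KO and 2934 to 24410 in AAV. The skeletal fibre sum held genes that went in opposite directions. Myh4 had 914020 to 1294000 in WT and 1722800 to 2213300 in KO, and Myh1 had 89364 to 212020 in WT and 28863 to 66937 in KO. The part of denervation, macrophages, nerve or fibre type in the differences of the channel genes was not tested.

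**Figure D5:**
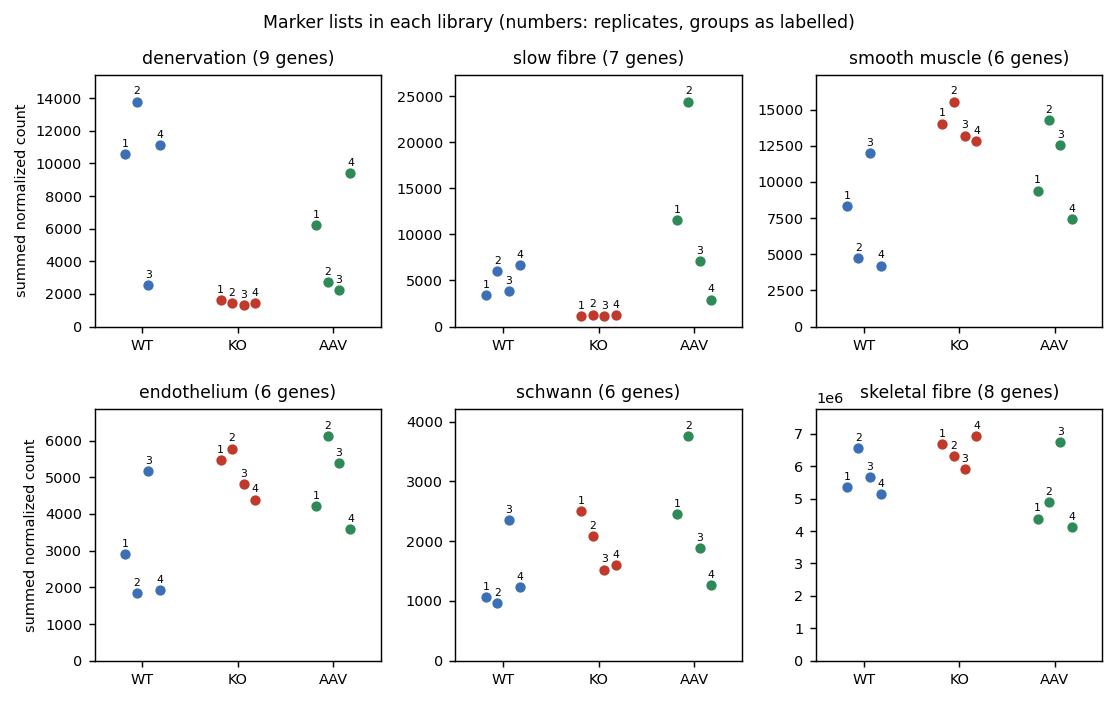
Summed normalized count of 6 marker lists (vertical axes, each from 0) in each library, by labelled group; points are single animals numbered by replicate. The denervation list is at 6225 or more in WT 1, WT 2, WT 4, AAV 1 and AAV 4 and at most 2746 in the other 7 libraries, while the smooth muscle and endothelium lists are lower in WT 1, WT 2 and WT 4 than in WT 3.

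Counts over the channel genes moved with single libraries, and so did those over all genes. Without the library labelled WT 3, 15 channel genes were called higher in KO and 8 lower, including all 10 of the original calls, while 9.69% and 12.2% of all genes were called. The additional genes called higher were Kcna1, Kcna2, Kcna5, Kcnab1, Kcne3, Kcne4, Kcnh7, Kcnj3, Kcnma1, Kcnmb1 and Kcnt2, and the additional genes called lower were Kcnk13 and Kcnu1. Without WT 2, one of the libraries whose Gaa level stood apart, 3 were called higher and 4 lower, beside 3.46% and 5.59% of all genes, and the calls of Kcnj8, Kcne1l and Kcnk5 were lost. Without AAV 4, 4 channel genes were called higher and 1 lower between AAV and KO, beside 4.31% and 2.73% of all genes, with that of Kcnip2 lost. Without AAV 3, 8 were called higher and 2 lower, beside 7.91% and 5.3% of all genes, with Kcne1l, Kcnh1 and Kcnip3 added to the higher genes and Kcnf1 to the lower. Without KO 1 the counts were 2 and 0 (3.47% and 2.42% of all genes), and without KO 2, KO 4 or AAV 1 they were 3 and 0, beside 3.66%, 3.38% and 2.91% of all genes called higher and 2.70%, 2.29% and 2.40% lower. For KO over WT without WT 4 they were 4 and 4, beside 3.67% and 5.57%. The call of Kcnt1 between AAV and WT was lost in 9 of 17 alternatives, including without WT 2, without AAV 4 and without both, over which its log2 fold change stayed between 2.05 and 2.73 and its adjusted p lay between 0.00551 and 0.159.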

How the data were processed

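RNA-Seq of quadriceps from 12 mice was analysed, with groups taken from the sample labels. Per the labels and the study's methods, the authors trimmed reads with Trim Galore 0.4.1, checked them with FastQC 0.11.2, kept reads of at least 20 nt, mapped them with STAR to GRCm38 (single locations only), counted them with HTSeq 0.6.1 and dropped genes that reached 10 reads in no library. The deposited signal values are these counts divided by 1 DESeq2 (version 1.16.1) size factor per library. Every value was a multiple of 1 step, so that whole reads were recovered for 100% of values in all 12 libraries (tolerance 0.05 reads). Values of the libraries labelled KO differed by 0 between the 2 deposited tables, so that AAV and WT share a scale. The authors' log2 fold changes and standard errors, test scores, p-values and adjusted p-values, also deposited, were not used. All sample columns were used (0 unused), and no replicates agreed within counting noise (smallest chi-square per gene 34.7).

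Tests used limma 3.58.1 (R 4.3.3) as described, with DESeq2 1.42.0 and edgeR 4.0.16 on recovered reads as alternatives, besides other scalings, filters and pseudocounts (0.1 in place of 1), a replicate block, all 12 libraries in 1 fit and libraries left out. Counts, with unit and depth as deposited, limit precision for genes with few reads. The exact intervals of pooled reads cover counting error only, and the 95% intervals of log2 fold changes come from the limma fits. The scripts were tested on simulated data. Exon lengths and coordinates came from GENCODE M21 (GRCm38), in which all 52 genes were found. Of 95 Kcn symbols sorted into classes, the other 43 were not analysed here. Kcnab2, Kcnh1, Kcnh7 and Kcnq5 overlap other genes, and counts there may be shared. Some items are counted in totals but not reported here. Genes named with values were by rule those called in any comparison, the 2 highest per kb of each class, and called genes of the partner list. Kcnma1, Kcna5, Kcna1, Kcna6, Abcc9, Abcc8, Myh4, Myh1, single smooth muscle markers and genes called only in an alternative were named after their values were seen. Genes, classes, marker lists and rules were chosen with earlier results of these data known. Other steps ran in Python 3.11.15 (numpy 2.4.6, pandas 2.3.3, matplotlib 3.10.9, scipy 1.17.1).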

Additional observations from a re-analysis of the deposited data

Results flagged for a closer look

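In 57 groups of 4 libraries, formed by the 19 genes named by rule and the 3 labels, 6 held a single library far from the other 3 (gap to the nearest of the others above the 95% critical value of Dixon's test). Chance alone gives this in about 1 in 20 groups. The library labelled WT 3 accounted for 4 of them. Its normalized count was 1400 for Kcnab1 (the others 2.13 to 28.1), 343 for Kcnj8 (93.2 to 95.6), 26.0 for Kcnn3 (122 to 138) and 20.3 for Kcnn4 (534 to 535). In the library labelled WT 1, Kcng2 had 2.71 (10.6 to 10.7 in the others), which is 3 reads. In the library labelled AAV 3, Kcnf1 had 302 (15.6 to 59.4).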

How the results depend on the processing

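Of 286 values of the 17 calls under the alternatives, 243 were still called, 43 were not and 0 had the opposite sign. Kcnf1, Kcng2, Kcng4, Kcnh2, Kcnn3, Kcnn4 and Kcnt1 kept their calls between KO and WT, and Kcnn3 and Kcnn4 between AAV and KO, in every alternative that could be fitted. For Kcng2 and Kcnt1 this leaves out the filter on a mean of at least 10, which removed both from the test. With 1 library left out in turn, channel genes called higher and lower numbered 3 to 15 and 4 to 8 for KO over WT, 2 to 8 and 0 to 2 for AAV over KO, and 0 to 1 and 0 for AAV over WT. In the same fits 3.46% to 9.69% and 5.57% to 12.2%, 2.91% to 7.91% and 2.29% to 5.3%, and 0.0942% to 1.69% and 0.0269% to 0.531% of all genes were called. Partner and transport genes numbered 1 to 5 and 1 to 5, 2 to 4 and 0 to 1, and 0 and 0. With all 12 libraries in one fit, 7 channel genes were called higher for KO over WT, and 2 channel genes and 1 partner gene for AAV over WT, beside 5.51% and 2.13% of all genes. For AAV over WT, 0 channel genes were called higher with a filter on a mean of at least 10 (0.798% of all genes), which removed Kcnt1 from the test. With the replicate block or without both WT 2 and AAV 4, 0 were called higher as well (0.643% and 0.0408% of all genes). DESeq2 called 1 partner gene higher there (2.13% of all genes). Of the partner genes, 1 was called lower for KO over WT by DESeq2, by edgeR and with the replicate block, beside 9.99%, 9.28% and 7.42% of all genes. The cause was not tested. The replicate block gave 5 channel genes higher and 6 lower for KO over WT, 4 and 1 for AAV over KO, and 0 and 0 for AAV over WT, beside 4.89% and 7.42%, 3.91% and 2.82%, and 0.643% and 0.161% of all genes. Replicate numbers stand for different animals and did not pair them: same-numbered libraries correlated at -0.115 to 0.0253, -0.176 to 0.0618 and -0.355 to 0.554, and matched their own number best in 0, 1 and 2 of 4. Scaling to equal totals moved the median of all genes from 0.041 to 0.21 for AAV over KO and from -0.031 to 0.12 for AAV over WT, and the level of the calcium- or sodium-activated class in AAV from 221 to 239.9 per kb. The other class levels moved by less than the spread between animals under this scaling and under TMM, which for class levels were added after seeing the data. Depth limits the 23 genes with a mean normalized count under 20.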
